A study of Mus musculus with 8 samples.

Results

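Dystrophin, utrophin and the membrane complex that they hold were followed in fetal diaphragm muscle through 8 genes. They are *Dmd* (dystrophin), *Utrn* (utrophin), *Dag1* (dystroglycan), *Sgca*, *Sgcb* and *Sgcd* (α-, β- and δ-sarcoglycan), *Dtna* (α-dystrobrevin) and *Itga7* (the α7 integrin subunit). They were taken by gene symbol alone, with no use of measured values, and all 8 were found among the 19465 genes of the probe panel. All 8 passed the filter on low counts in every comparison.

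Dystrophin links the actin cytoskeleton beneath the muscle membrane to dystroglycan, which spans the membrane and binds laminin of the basal lamina. The sarcoglycans sit beside dystroglycan in the membrane, α-dystrobrevin binds dystrophin and carries the syntrophins, and the α7β1 integrin is a separate laminin receptor of muscle fibers that is enriched at the myotendinous junction (MTJ). Utrophin is the autosomal relative of dystrophin. In adult fibers it is concentrated at the neuromuscular junction (NMJ) and the MTJ, and in fetal muscle it occupies more of the membrane before dystrophin accumulates there.

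Gene expression had been recorded with 10X Visium probes for formalin-fixed tissue in 8 horizontal sections of mouse diaphragm, each from an embryo at embryonic day E14.5 or E18.5. Controls comprised 3 sections at E14.5 and 2 at E18.5. Single sections represented CaV1.1 KO at E14.5, CaV1.1 KO at E18.5 and β-cat cKO at E18.5. CaV1.1 KO embryos were dysgenic homozygotes without the skeletal muscle calcium channel in any tissue, whereas β-cat cKO embryos carried floxed β-catenin alleles with HSA-Cre, which is active in skeletal muscle. Controls kept at least 1 functional allele of each gene, and because some breeders were shared, controls and the β-cat cKO embryo could be heterozygous for CaV1.1. By the same sharing, controls and CaV1.1 KO embryos could carry floxed β-catenin alleles, with or without HSA-Cre. Sex and litter were not given. With 1 section per mutant group, that section was assumed to vary as the control sections did. P-values of comparisons between groups rest on the spread between control sections. Those of comparisons of spot classes within sections rest on the spread left after the section is taken out. Either spread may be partly technical.

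On GRCm38.p6 (mm10), the RefSeq gene spans are chrX:82814664-85205050 for *Dmd*, chr10:12382187-12869888 for *Utrn*, chr9:108204861-108263977 for *Dag1*, chr11:94962777-94976327 for *Sgca*, chr5:73632749-73647737 for *Sgcb*, chr11:46971077-47989451 for *Sgcd* and chr10:128933421-128958286 for *Itga7*. Counts are per gene, so isoforms from different starts were not separated. The start regions of *Dmd*, *Utrn* and *Sgca* are shown because the *Utrn* to *Dmd* ratio changed with age and region, and because *Sgca* had the largest difference between muscle and other spots among the 8 members at E14.5. Each window runs from 250 bases before to 50 after a start site annotated by RefSeq on GRCm38.p6, 5′ to 3′ on the gene's strand, and capitals mark the motifs found. The *Dmd* window lies at chrX:82948620-82948919 on the plus strand, the *Utrn* window at chr10:12861686-12861985 on the minus strand and the *Sgca* window at chr11:94976278-94976577 on the minus strand. The *Dmd* and *Utrn* windows lie inside the span of their genes, downstream of its outer end. The windows are labelled by gene, so the isoform that starts at each is not named here.
Dmd: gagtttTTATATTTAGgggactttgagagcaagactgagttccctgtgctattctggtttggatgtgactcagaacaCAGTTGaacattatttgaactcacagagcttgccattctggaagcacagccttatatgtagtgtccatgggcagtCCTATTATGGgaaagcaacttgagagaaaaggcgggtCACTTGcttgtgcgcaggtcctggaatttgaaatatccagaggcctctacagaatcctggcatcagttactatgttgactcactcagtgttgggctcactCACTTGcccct
Utrn: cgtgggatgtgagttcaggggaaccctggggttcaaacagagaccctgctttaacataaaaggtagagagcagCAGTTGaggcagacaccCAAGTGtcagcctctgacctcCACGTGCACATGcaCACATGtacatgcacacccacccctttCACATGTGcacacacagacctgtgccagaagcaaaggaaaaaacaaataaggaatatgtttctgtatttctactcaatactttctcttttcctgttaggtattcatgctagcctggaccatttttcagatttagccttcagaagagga
Sgca: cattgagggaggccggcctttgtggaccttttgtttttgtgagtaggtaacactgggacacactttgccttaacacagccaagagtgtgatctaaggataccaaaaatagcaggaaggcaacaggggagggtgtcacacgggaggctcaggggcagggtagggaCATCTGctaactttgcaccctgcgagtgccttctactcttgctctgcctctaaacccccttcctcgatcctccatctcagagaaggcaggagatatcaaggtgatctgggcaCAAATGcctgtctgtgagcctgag
Both strands were searched for the E-box (CANNTG, bound by myogenic bHLH factors), the CArG box (bound by serum response factor), the MEF2 site and the N-box (TTCCGG, described for synapse-specific transcription in muscle). The *Dmd* window shown held a CArG box starting at position -98 from the start site, a MEF2 site at -244 and 3 E-boxes. Another *Dmd* start window, at chrX:85048045-85048344 on the plus strand and not shown, held no E-box, CArG box, MEF2 site or N-box. The *Utrn* window held 7 E-boxes, some of them overlapping, and the *Sgca* window held 2. No N-box was present in any window of the 6 members that had one. Other *Utrn* starts were not searched, so these counts hold for the *Utrn* window shown and not for the gene. Among 32851 start windows of the same length, 72.3% held an E-box, 1.63% a CArG box, 3.19% a MEF2 site and 14.9% an N-box. A match in these letters is a description and no evidence of binding. *Dtna* and *Itga7* had no window in the table.

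Between 683 and 3460 spots per section passed the minimum of 1000 UMIs (unique molecular identifiers, each standing for 1 captured probe pair), with 14179161 to 82859104 UMIs per section. A spot is 55 µm wide and covers several cells. Muscle spots, 491 to 3092 per section, were those with a high mean level of 9 sarcomeric genes, and no member served to define any spot class. Levels are given in CPM, the number of UMIs of a gene among 1000000 UMIs of the same spots. The summed level of these 9 genes in muscle spots was 21642 to 27362 CPM in E14.5 controls and 128417 to 131917 in E18.5 controls. It was 16235 in CaV1.1 KO at E14.5, 71384 in CaV1.1 KO at E18.5 and 105199 in β-cat cKO. *Cacna1s*, which encodes CaV1.1, was at 18.3 to 22.8 CPM in E14.5 control muscle and 16.2 in the KO. At E18.5 it was at 61.2 and 63.9 in controls, 31.4 in CaV1.1 KO and 59.6 in β-cat cKO. It fell in CaV1.1 KO at E18.5 (log2 fold change -1.53, edgeR adjusted p = 0.00133), but at E14.5 its difference of -0.30 did not pass the test. *Ctnnb1*, which encodes β-catenin, was at 81.5 in β-cat cKO muscle and 75.9 and 71.2 in its controls, so the library labelled β-cat cKO showed no loss of this transcript. Whether the probes lie in the deleted exons was not given, and spots also hold cells without Cre.

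Fold changes come from edgeR's quasi-likelihood test on UMIs summed per section with TMM scaling, and a gene was called at a Benjamini-Hochberg adjusted p below 0.05 over all genes tested. For fits that left out a section, the share of all genes called is not given, so their member counts have no background. Scaling to all UMIs in place of TMM moved the median gene by -0.72 on the log2 scale between the stages and by 0.54 between CaV1.1 KO and control at E18.5. Scaling to the 9 sarcomeric genes moved the same medians by -3.18 and 1.40. Probes differ in efficiency, so levels of different genes are not compared with each other. Fewer fibers in a spot and less RNA per fiber cannot be told apart in these data.

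The first question was where in the diaphragm the complex was transcribed. *Sgca*, which is known as a striated muscle gene, was at 85.6, 64.4 and 69.1 CPM in muscle spots of the 3 E14.5 controls and at 30.0, 16.6 and 20.2 in the other spots. At E18.5 the levels were 179.1 and 192.5 in muscle and 74.5 and 51.3 elsewhere. Muscle and other spots did not overlap at either stage. *Utrn* behaved differently. It was at 43.5, 42.3 and 41.2 in muscle of the E14.5 controls and at 46.8, 50.5 and 32.2 outside it. At E18.5 it was at 70.7 and 68.5 in muscle and at 79.9 and 85.6 outside. The 2 classes overlapped at E14.5, and outside values were the higher ones in both E18.5 controls on this scale.

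In a fit with the section as block, 7 of the 8 members were higher in muscle at E14.5, where 41.0% of all genes were called, and 8 at E18.5, where 57.9% were called. *Sgca* was 3.80-fold higher at E14.5 (log2 1.93 ± 0.17 SE, adjusted p = 0.000314) and 4.78-fold higher at E18.5. *Itga7* was 3.27-fold and 3.12-fold higher, and *Dtna* 3.08-fold and 4.94-fold. *Dag1*, *Sgcb*, *Sgcd* and *Dmd* had log2 differences of 0.42 to 0.97 at E14.5 and 1.12 to 1.48 at E18.5. *Sgcd* was the weakest of them at E14.5, with an adjusted p of 0.0289 that rose to 0.122 when scaled to all UMIs. *Utrn* did not pass at E14.5 (0.12 ± 0.10, adjusted p = 0.450). At E18.5 it passed with TMM (0.43 ± 0.11, adjusted p = 0.0161), though not without E18.5 control 1 (0.37, adjusted p = 0.0991) or control 2 (0.44, adjusted p = 0.0673), and the difference turned to -0.25 (adjusted p = 0.0929) when scaled to all UMIs. The median difference of the 8 members was 0.96 at E14.5 and 1.41 at E18.5, beside 0.01 and -0.01 over all genes. With all UMIs, the split of calls over all genes moved from 3243 higher and 2546 lower to 1677 and 4353 at E14.5, and from 4400 and 3780 to 1670 and 9000 at E18.5.

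In spots outside muscle with high tendon genes, *Sgcd* was at 202.6, 185.0 and 222.3 in the E14.5 controls, whereas it was at 205.2, 178.0 and 189.9 in muscle. These ranges overlapped. In the same tendon spots *Sgca* was at 36.1, 14.1 and 17.8. *Sgcd* was thus the sarcoglycan whose transcripts reached into tendon-rich spots at E14.5 at the level of muscle. It is known to be expressed in smooth muscle as well as in striated muscle.

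**Figure D1:**
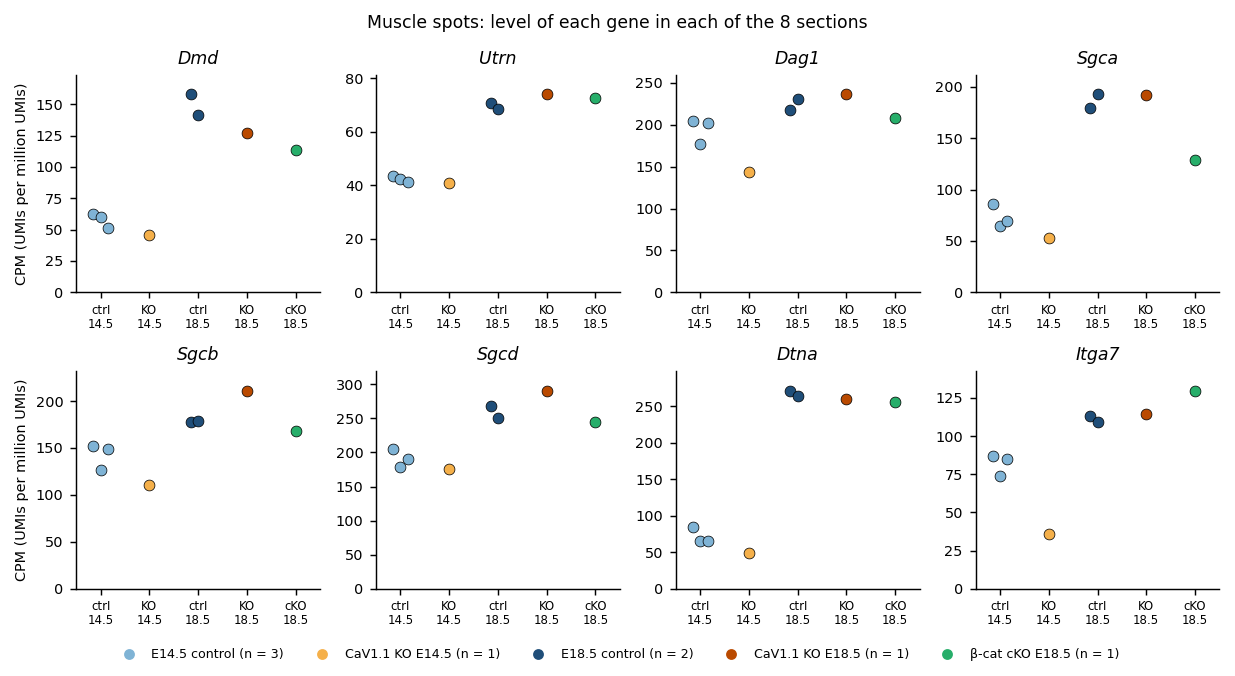
Level of each of the 8 genes in the muscle spots of each section, in CPM on a linear axis starting at 0; each point is 1 section. *Dmd*, *Utrn*, *Sgca* and *Dtna* rise clearly from E14.5 to E18.5, and *Itga7* is lowest in CaV1.1 KO at E14.5, at 35.6. On this scale all E18.5 controls lie above all E14.5 controls for each gene, whereas the direction reverses relative to the 9 sarcomeric genes.

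The second comparison asked how the complex changed in control muscle between E14.5 and E18.5. *Dmd* was at 62.9, 59.8 and 51.7 CPM at E14.5 and at 157.9 and 141.6 at E18.5. *Dtna* was at 83.9, 65.1 and 64.8 and then at 270.9 and 263.7. *Sgca* went from 85.6, 64.4 and 69.1 to 179.1 and 192.5. For these 3 genes every E18.5 control was far above every E14.5 control. *Utrn* was at 43.5, 42.3 and 41.2 at E14.5 and at 70.7 and 68.5 at E18.5, also without overlap. The differences of *Dag1* (204.3, 176.7 and 202.0 against 218.1 and 230.4) and *Sgcb* (152.6, 126.2 and 149.2 against 178.2 and 178.2) were small on this scale, though the stages did not overlap. *Sgcd* (205.2, 178.0 and 189.9 against 268.5 and 251.0) and *Itga7* (87.0, 73.7 and 84.7 against 113.2 and 109.2) lay between these extremes.

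All 8 members rose with TMM, in a comparison in which 65.6% of 14832 genes were called, and 7 of 8 rose when scaled to all UMIs (76.1% called), whereas all 8 were lower at E18.5 relative to the 9 sarcomeric genes (95.8% called), by -0.53 for *Dtna* to -2.24 for *Dag1*. The complex thus gained transcript share in muscle spots, but less than the sarcomere did. The rise was largest for *Dtna* (6.15-fold, log2 2.62 ± 0.15 SE, adjusted p = 5.31e-06), *Dmd* (4.23-fold, 2.08 ± 0.12) and *Sgca* (4.18-fold, 2.06 ± 0.15). *Utrn* rose 2.71-fold (1.44 ± 0.08), *Itga7* and *Sgcd* 2.24-fold each, *Sgcb* 2.06-fold and *Dag1* 1.90-fold (0.93 ± 0.11, adjusted p = 0.000163). Scaled to all UMIs, the log2 changes were 1.91 for *Dtna*, 1.36 for *Dmd*, 1.35 for *Sgca* and 0.72 for *Utrn*, and *Dag1* no longer passed (0.21, adjusted p = 0.0703). The median over the 8 was 1.30 beside -0.01 over all genes with TMM, and 0.58 beside -0.73 with all UMIs. Over all genes 4930 were higher and 4796 lower with TMM, against 2259 and 9033 with all UMIs. Besides the 9 sarcomeric genes (9 of 9), markers of endothelium (4 of 4), cartilage (3 of 3), fibroblasts (3 of 4) and mesothelium (2 of 3) were higher in E18.5 muscle spots. Both tested markers of satellite cells and myoblasts were lower (2 of 2), with a sum of 96.8 to 106 CPM at E14.5 and 33.9 to 41.7 at E18.5. The part of these cells in the changes was not tested.

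**Figure D2:**
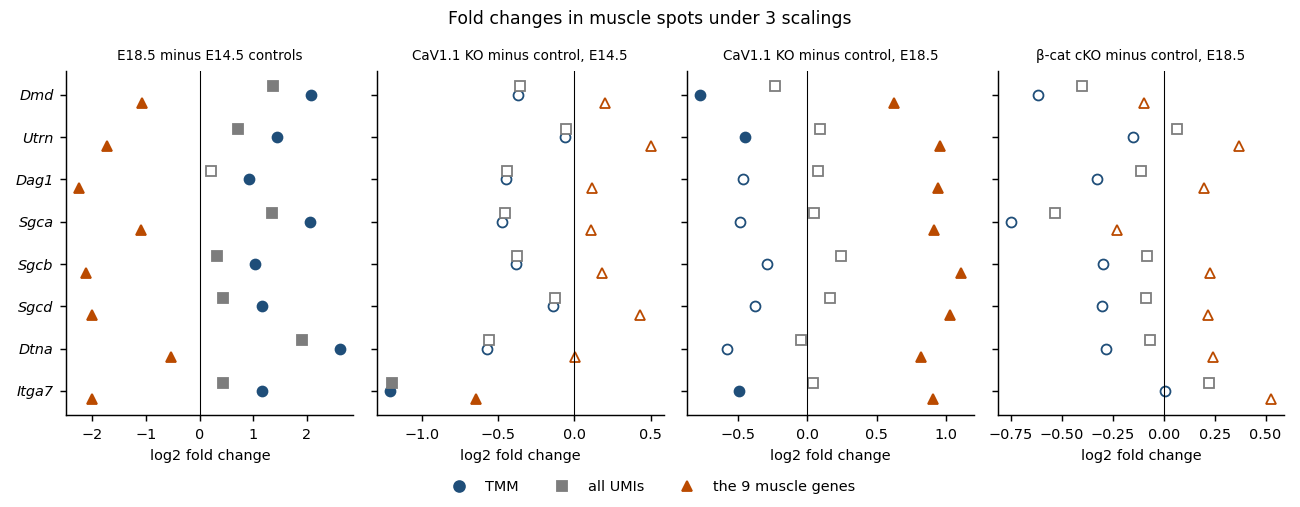
Log2 fold change of each gene in muscle spots in 4 comparisons under 3 scalings; filled symbols passed the adjusted p of 0.05 and open symbols did not, and each panel has its own axis. Between the stages the 8 genes are higher with TMM and with all UMIs but lower relative to the 9 sarcomeric genes, and in CaV1.1 KO at E18.5 the negative TMM values of 6 genes turn positive with all UMIs.

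Because *Utrn* is known to give way to *Dmd* along the fiber membrane before birth, the ratio of their UMIs was formed within each section, where no scaling is needed. In muscle there were 69.1, 70.7 and 79.8 *Utrn* UMIs per 100 *Dmd* UMIs in the E14.5 controls and 44.8 and 48.4 in the E18.5 controls. The stages did not overlap. The log2 ratio fell by 0.65 from E14.5 to E18.5, and the two-sided exact permutation p was 0.1, the smallest that the 10 assignments of 5 sections allow, so this design cannot reach 0.05. The ratio was 89.7 in CaV1.1 KO at E14.5, above the 3 controls. At E18.5 it was 58.2 in CaV1.1 KO and 64.2 in β-cat cKO, both above the 2 controls of that age and below the controls of E14.5. These mutant values were not tested. Outside muscle the ratio was 94.3, 109.6 and 86.0 at E14.5 and 71.6 and 103.5 at E18.5, overlapping between the stages. Its absolute size depends on the probes of the 2 genes, so only its differences between sections and spot classes can be read. In each control the ratio was higher outside muscle than in muscle. Muscle spots also hold cells other than fibers, and their part in the differences between stages and genotypes was not tested.

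**Figure D3:**
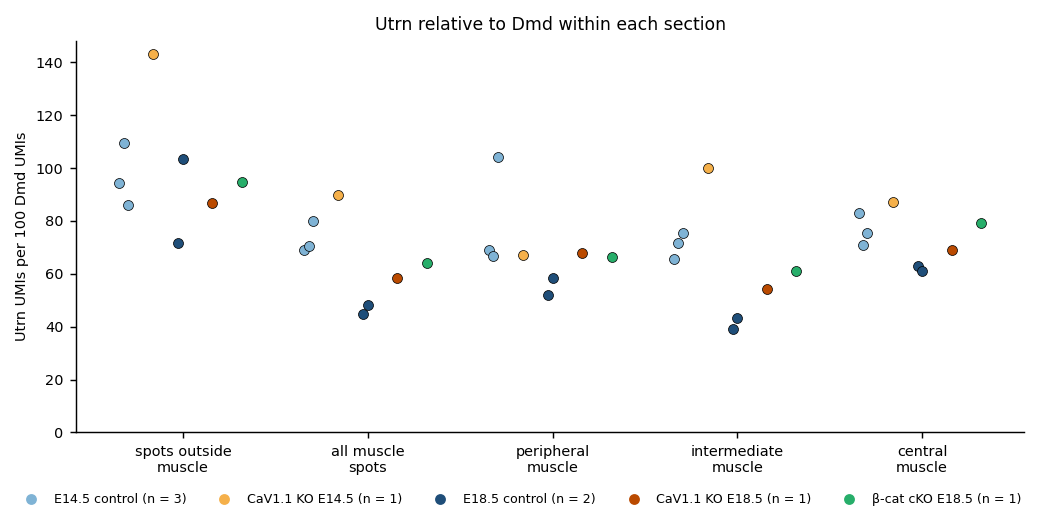
*Utrn* UMIs per 100 *Dmd* UMIs within each section, for spots outside muscle, all muscle spots and 3 muscle regions, on a linear axis from 0; each point is 1 section. In intermediate muscle the E18.5 controls sit at 39.3 and 43.4 and the E14.5 controls at 65.7 to 75.6, whereas in central muscle the E18.5 controls reach 63.1 and 61.1.

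Muscle was next divided into a center, the 15% of muscle spots with the highest scores of 8 endplate genes, a periphery, the 15% with the highest scores of 4 MTJ genes, and intermediate muscle between them. At E14.5 the center differed from intermediate muscle mainly in members other than *Dmd* and *Utrn*. *Dtna* was at 103.8, 86.4 and 78.9 CPM in the center against 79.7, 63.0 and 62.8 in intermediate muscle, higher in 3 of 3 sections. *Dag1* was at 253.5, 207.3 and 238.2 against 197.0, 171.7 and 198.2, again higher in each section and without overlap between the regions. The dystroglycan that *Dag1* encodes binds agrin and laminin at the synapse as well as along the fiber. Of the 8 members, 5 were called, all higher (16.9% of 12092 genes called), with log2 differences of 0.45 ± 0.06 for *Dtna*, 0.41 for *Sgca*, 0.35 for *Dag1*, 0.29 for *Itga7* and 0.23 for *Sgcb*. Relative to the 9 sarcomeric genes, which themselves had a median difference of 0.31 at the center, *Sgcb* turned to -0.04 and the other 4 were at 0.02 to 0.17 and did not pass, and the 2 that passed were *Dmd* (-0.33) and *Sgcd* (-0.28), both lower (54.1% of genes called). In the same comparison the markers of fibroblasts (4 of 4), hepatocytes (3 of 3), tendon (3 of 4), endothelium (3 of 4) and erythrocytes (2 of 2) were lower and those of Schwann cells higher (3 of 3 tested), and their part was not tested. The 3 members that did not pass were *Utrn* (0.09), *Sgcd* and *Dmd* (-0.04). Within sections the *Utrn* difference was 0.20, 0.00 and -0.20, without a shared direction.

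In the periphery at E14.5, 3 members rose in a comparison with 7.73% of genes called. *Sgcd* was at 267.9, 239.5 and 199.8 in peripheral against 195.3, 170.6 and 190.3 in intermediate muscle (log2 0.38 ± 0.06, adjusted p = 0.000109), higher in 3 of 3 sections, though by 0.07 only in the third control. *Utrn* was at 50.8, 49.7 and 53.5 against 41.1, 41.1 and 40.1 (0.33 ± 0.09, adjusted p = 0.0165), without overlap. *Dmd* was at 73.8, 74.5 and 51.4 against 62.6, 57.3 and 53.0 (0.25 ± 0.08, adjusted p = 0.0442), higher in 2 of 3 sections. Relative to the 9 sarcomeric genes (10.2% of genes called) none of the 3 passed, at 0.21 for *Sgcd* (adjusted p = 0.106), 0.17 for *Utrn* (adjusted p = 0.306) and 0.07 for *Dmd* (adjusted p = 0.683), whereas *Dag1* (-0.28) and *Dtna* (-0.32) were lower. With all UMIs (7.59% called) *Dmd* was at 0.24 and missed the threshold (adjusted p = 0.0540). Without control 1 or without control 2, 1 member was called with TMM, and it was *Sgcd* both times. With the periphery taken as muscle within 150 µm of other spots, *Sgcd* was at 0.01 (adjusted p = 0.959). Markers of tendon moved with the periphery: 4 of 4 were higher and their sum was 512 to 643 against 356 to 442 CPM in intermediate muscle. Smooth muscle markers were higher in 2 of 3 tested, with a sum over the 4 markers of 686 to 931 against 531 to 694 CPM. Markers of endothelium (3 of 4), hepatocytes (3 of 3), Schwann cells (2 of 3 tested) and erythrocytes (2 of 2) were lower. Their part in the results was not tested.

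**Figure D4:**
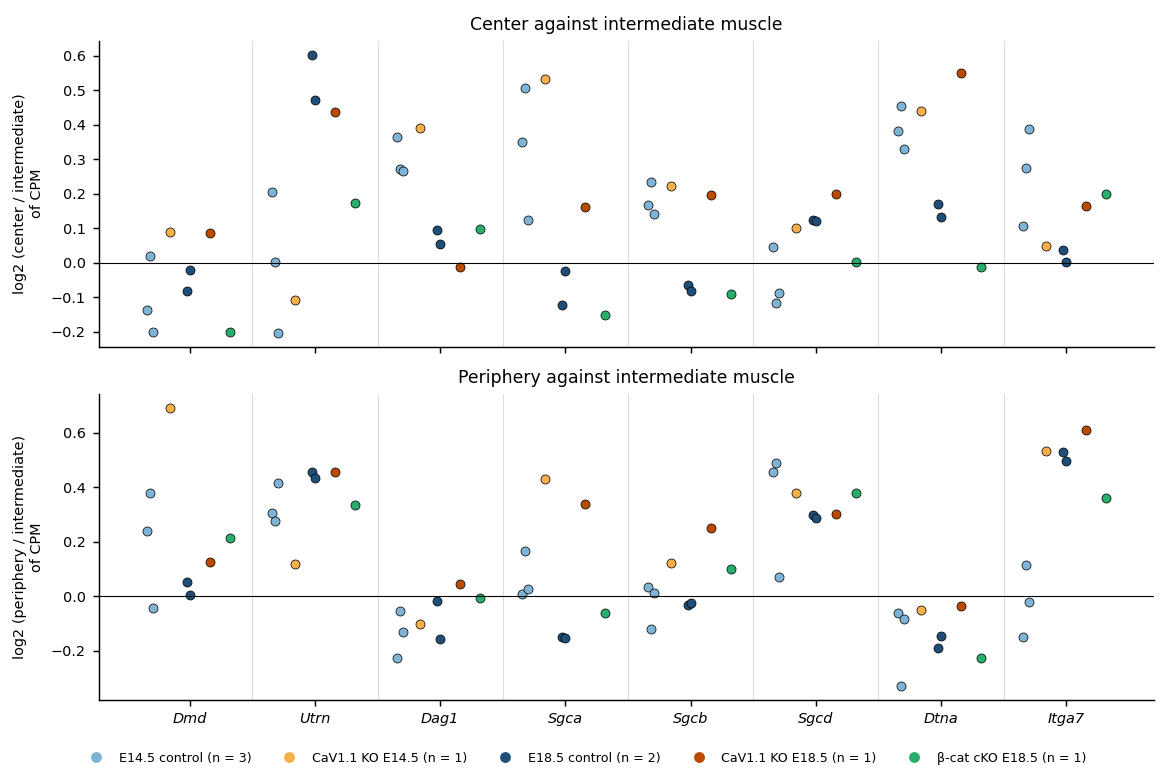
Log2 ratio of CPM between central and intermediate muscle (top) and between peripheral and intermediate muscle (bottom) within each section; each point is 1 section and 0 marks equal levels. *Utrn* in the center is at 0.60 and 0.47 in the E18.5 controls and between -0.20 and 0.20 in the E14.5 controls, and *Itga7* in the periphery is at 0.53 and 0.50 at E18.5 but near 0 at E14.5.

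At E18.5 the center was marked by *Utrn*. In central muscle it was at 94.5 and 85.5 CPM, in intermediate muscle at 62.2 and 61.6 and in peripheral muscle at 85.3 and 83.2. Center and periphery were above intermediate muscle in both sections. The central rise (1.36-fold, log2 0.45 ± 0.04, adjusted p = 2.18e-05) passed in 10 of 11 alternative settings, the exception being a fit without the section block (adjusted p = 0.0911). With all UMIs it was 0.54, and relative to the 9 sarcomeric genes 0.69. Of the 8 members, 4 were called in the center (11.5% of 12900 genes called). The other 3, *Dmd* (-0.15), *Sgca* (-0.17) and *Sgcb* (-0.17), were lower with TMM, were not called with all UMIs (-0.05, -0.07 and -0.07) and turned positive relative to the 9 sarcomeric genes (0.09, 0.07 and 0.07). With all UMIs, 3 members were called, against 17.3% of all genes, and these were *Utrn*, *Sgcd* (0.12) and *Dtna* (0.15), each higher. Without control 1, 1 member was called with TMM, and without control 2, 2 members were, *Utrn* being among them each time. The split over all genes was 709 higher and 771 lower with TMM and 1874 and 359 with all UMIs.

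Schwann cell markers moved with the center as well. Their sum was 78.8 to 87.7 CPM in central and 41.0 to 44.9 in intermediate muscle of the E18.5 controls, and 4 of 4 were higher (median log2 difference 1.39). At E14.5 it was 255 to 316 in central and 171 to 238 in intermediate muscle, where the *Utrn* difference did not pass. Of 4 endothelial markers 2 were lower in the E18.5 center, as were 2 of 3 hepatocyte markers and 6 of the 9 sarcomeric genes. Their part in the *Utrn* result was not tested.

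At the E18.5 periphery *Itga7* stood out. It was at 152.3 and 145.5 CPM in peripheral muscle, at 105.5 and 103.1 in intermediate and at 108.2 and 103.4 in central muscle. It rose 1.29-fold with TMM (log2 0.36 ± 0.04, adjusted p = 1.09e-05) and by 0.51 with all UMIs. When the periphery was instead taken as muscle within 150 µm of other spots, the *Itga7* difference was -0.01 (adjusted p = 0.957). *Utrn* was higher as well (0.29 ± 0.04, adjusted p = 0.000225), as was *Sgcd* (0.14 ± 0.04, adjusted p = 0.0127), at 314.5 and 292.8 against 255.9 and 240.2. With the edge rule *Sgcd* turned to -0.15 (adjusted p = 0.210), and it did not pass without control 1 (adjusted p = 0.621) or control 2 (adjusted p = 0.486).

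All 8 members were called in this comparison (34.0% of genes called), 3 higher and 5 lower. With all UMIs 5 were called (48.2% of genes), and *Dmd* turned from -0.12 (adjusted p = 0.0498) to 0.03. *Dtna* (-0.32), *Sgca* (-0.30), *Dag1* (-0.24) and *Sgcb* (-0.18) were lower with TMM, and relative to the 9 sarcomeric genes they turned to 0.06, 0.08, 0.15 and 0.20. *Dtna* was at 237.4 and 237.8 in the periphery against 271.0 and 263.4 in intermediate muscle, and *Sgca* at 166.1 and 176.1 against 184.2 and 195.9, so both were lower in both sections also before TMM. Tendon markers were 4 of 4 higher in the periphery, with a sum of 769 to 1044 against 219 to 267 CPM. The 9 sarcomeric genes were lower (8 of 9, median -0.31), as were the markers of endothelium (4 of 4) and hepatocytes (3 of 3). Their part in the results was not tested. Over all genes 2204 were higher and 2181 lower with TMM, against 5105 and 1112 with all UMIs. Without control 1, 5 members were called and *Utrn* missed the threshold (0.22, adjusted p = 0.0711).

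The change of these patterns between the stages was tested as an interaction in a fit of all 8 sections. For center against intermediate muscle, 6 members passed (12.9% of genes called). *Utrn* moved toward the center, by 0.33 ± 0.10 (adjusted p = 0.0221), while *Sgca* (-0.61), *Sgcb* (-0.43), *Dtna* (-0.42), *Dag1* (-0.40) and *Itga7* (-0.39) moved away from it. The *Utrn* term missed the threshold without E14.5 control 2 (0.32, adjusted p = 0.128), without E14.5 control 3 (0.28, adjusted p = 0.0557) and without E18.5 control 1 (0.27, adjusted p = 0.192). The 9 sarcomeric genes moved away from the center too (9 of 9, median -0.54). Toward the center, as *Utrn* did, moved the markers of Schwann cells (3 of 4, median 1.05), fibroblasts (3 of 4, 0.44), tendon (2 of 4, 0.43) and erythrocytes (2 of 2, 0.80), and their part was not tested. For periphery against intermediate muscle, 4 members passed (10.6% of genes called). *Itga7* moved toward the periphery (0.35 ± 0.09, adjusted p = 0.00710), and *Sgca* (-0.40), *Dmd* (-0.38) and *Sgcd* (-0.25) moved away from it. The *Itga7* term missed the threshold without E14.5 control 1 (0.27, adjusted p = 0.0780) and without E18.5 control 1 (0.32, adjusted p = 0.0604). With all UMIs it was at 0.52, whereas *Sgca*, *Dmd* and *Sgcd* were at -0.23, -0.21 and -0.08 and did not pass. Tendon markers moved toward the periphery (3 of 4) and the 9 sarcomeric genes away from it (8 of 9, median -0.38), and their part was not tested.

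Position was also read as distance from the nearest spot outside muscle, as a description only. *Dtna* was lower in spots next to such a spot, within 100 µm, than in spots over 300 µm away in 8 of 8 sections, with log2 ratios of -0.32 to -0.59. *Dag1* and *Sgca* were lower at the edge in all 8 sections too (-0.09 to -0.50 and -0.20 to -0.70). *Utrn* was higher at the edge in both E18.5 controls (0.42 and 0.45), at 88.3 and 89.1 CPM against 66.0 and 65.3, and had no shared direction at E14.5 (0.11, 0.25 and -0.15). *Itga7* was lower at the edge in the 3 E14.5 controls (-0.47, -0.66 and -0.57) and higher in the 2 E18.5 controls (0.42 and 0.10). In CaV1.1 KO at E14.5, CaV1.1 KO at E18.5 and β-cat cKO the *Utrn* ratios were 0.02, -0.39 and 0.01. Those of *Itga7* were -0.26, -0.68 and -0.25, in the same order. The edge excess of the E18.5 controls was thus not seen in the mutants of that age. Edge spots can include part of the neighboring tissue, and its share in these ratios was not tested.

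Slow-rich and fast-rich muscle of E18.5 controls was compared as the 25% of muscle spots each with the highest and lowest score of 6 type I minus 5 type IIb genes. *Sgca* was at 171.0 and 178.0 CPM in slow-rich and at 189.0 and 201.6 in fast-rich spots, without overlap. *Utrn* was at 77.1 and 76.7 against 65.3 and 60.0. Of the 8 members, 5 were called (22.9% of 13269 genes called), with *Sgca* (-0.30 ± 0.04, adjusted p = 5.02e-05), *Dmd* (-0.23), *Sgcb* (-0.21) and *Dtna* (-0.14) lower and *Utrn* (0.16 ± 0.05, adjusted p = 0.0294) higher in slow-rich spots. With all UMIs 3 passed (37.0% of genes), namely *Sgca* (-0.16), *Utrn* (0.29) and *Itga7* (0.27). Without control 2 the count with TMM was 2. Slow-rich spots had more of the markers of tendon (4 of 4, sum 411 to 478 against 203 to 208), cartilage (3 of 3) and hepatocytes (3 of 3), and less of those of endothelium (4 of 4, median -0.44) and erythrocytes (2 of 2) and of the 9 sarcomeric genes (7 of 9). Their part in the differences was not tested. Over all genes 1496 were higher and 1545 lower with TMM, against 4122 and 788 with all UMIs.

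The mutants addressed how the complex depended on the calcium channel and on β-catenin. In CaV1.1 KO at E14.5, *Itga7* was at 35.6 CPM, below the 87.0, 73.7 and 84.7 of the controls. It was 2.31-fold lower (log2 -1.21 ± 0.15 SE, adjusted p = 0.0124), and was lower under the other scalings too, by -1.20 with all UMIs and by -0.64 relative to the 9 sarcomeric genes. It was the only member called, in a comparison that called 2.08% of genes. The other 7 had values of -0.57 (*Dtna*) to -0.06 (*Utrn*) and did not pass, with 45.5 for *Dmd* and 40.8 for *Utrn* in the KO. The KO level of *Utrn* lay just below that of the lowest control (40.8 against 41.2). Relative to the 9 sarcomeric genes, however, these 7 turned positive, from 0.0064 (*Dtna*) to 0.50 (*Utrn*), without passing the test (33.3% of genes called). The 9 sarcomeric genes had a median of -0.51, with 0 of 9 called by edgeR. Without E14.5 control 3 the adjusted p of *Itga7* was 0.0604 at an unchanged fold change of -1.21. The median over the members was -0.42 beside 0.00 over all genes, of which 79 were higher and 229 lower.

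By E18.5 the deficit of *Itga7* was no longer seen on the level scale, at 114.4 CPM in CaV1.1 KO against 113.2 and 109.2. *Dmd* was at 127.1 against 157.9 and 141.6, *Utrn* at 74.0 against 70.7 and 68.5, and *Sgca* at 192.3 against 179.1 and 192.5. With TMM, 3 members were called, in a comparison that called 25.7% of genes, namely *Dmd* (-0.78 ± 0.17, adjusted p = 0.0151), *Utrn* (-0.45, adjusted p = 0.0272) and *Itga7* (-0.50, adjusted p = 0.0404), but with all UMIs the values were -0.24, 0.09 and 0.04 and no member was called, where 53.9% of genes were. Relative to the 9 sarcomeric genes, which fell in this section (9 of 9, median -1.29), the same genes turned to 0.63, 0.96 and 0.91, where 84.1% of all genes were called. The direction of these changes therefore depended on the scaling. *Dmd* and *Dtna* (259.3 against 270.9 and 263.7) were the members whose level in the KO lay below both controls. The other 5 were at -0.58 to -0.29 with TMM and did not pass. Without E18.5 control 1 the count fell to 1, and without E14.5 control 1 it was 7. Over all genes 1568 were higher and 2251 lower with TMM, against 7245 and 752 with all UMIs. No such counts are given for the fits that left out a control, so those member counts have no background. Schwann cell markers were higher in this section, at 144 against 47.1 to 51.4 CPM (3 of 4 markers called). Markers of endothelium (3 of 4), smooth muscle (3 of 4), tendon (3 of 4) and cartilage (2 of 3) were lower with TMM. The part of these cells was not tested.

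The difference between the CaV1.1 KO effects at the 2 ages was tested directly, sharing the controls above. No member passed with TMM in edgeR (6.40% of genes called, 3896 of 14832 at an unadjusted p below 0.05). *Itga7* came nearest, at 0.71 ± 0.20 (adjusted p = 0.0746). It passed in 4 alternatives, at 1.24 with all UMIs (adjusted p = 0.00718, 31.4% of genes called), 1.55 relative to the 9 sarcomeric genes (31.8% called), 0.73 with DESeq2 and 0.94 in the muscle spots with the higher muscle scores.

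In β-cat cKO at E18.5, compared with the same controls as the KO of that age, *Sgca* was at 128.3 CPM against 179.1 and 192.5, and *Dmd* at 113.3 against 157.9 and 141.6. Both lay below both controls. *Sgca* differed by -0.75 ± 0.20 (adjusted p = 0.0639) and *Dmd* by -0.62 ± 0.17 (adjusted p = 0.0605), so neither passed in edgeR with TMM, in which 8.80% of genes were called and 3805 had an unadjusted p below 0.05. Both passed in 4 alternatives, which were DESeq2 (adjusted p = 0.00435 and 0.00945), no filter on low counts, all kept spots and the fit without E14.5 control 1. Scaled to all UMIs they were at -0.53 (adjusted p = 0.0621) and -0.40 (adjusted p = 0.0740). Relative to the 9 sarcomeric genes, which had a median of -0.56 with 0 of 9 called by edgeR, they were at -0.23 (adjusted p = 0.496) and -0.10 (adjusted p = 0.791). The other 6 members had values of -0.33 to 0.00, and *Itga7* was at 129.7 against 113.2 and 109.2. Over all genes 471 were higher and 834 lower with TMM, against 2258 and 568 with all UMIs.

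Regional patterns of the members in the mutants were tested as interactions against the controls of the same age. In CaV1.1 KO at E14.5 no member passed by edgeR for the center (0.0423% of genes called, 1054 at an unadjusted p below 0.05) or the periphery (0.388% and 1253). In that section *Itga7* was at 47.8 CPM in the periphery and 33.0 in intermediate muscle, and *Dmd* at 66.1 and 40.9. At E18.5, CaV1.1 KO differed from control in 3 members for the center (3.31% of genes called), *Dtna* (0.59 ± 0.09), *Sgcb* (0.46) and *Sgca* (0.43), which were relatively higher there than in controls. *Dtna* was at 355.7 in the center and 243.0 in intermediate muscle of the KO, where the controls had 304.7 and 288.5 against 271.0 and 263.4. For the periphery 4 members differed (8.62% of genes called), *Sgca* (0.73 ± 0.11), *Sgcb* (0.52), *Dtna* (0.38) and *Dag1* (0.37). *Sgca* was at 231.5 in the periphery against 183.2 in intermediate muscle of the KO, the reverse of the control order. The 9 sarcomeric genes moved in the same direction (9 of 9 called for the center and 8 of 9 for the periphery, medians 0.47 and 0.44), whereas Schwann cell markers were relatively lower in the KO center (3 of 4) and tendon markers in the KO periphery (4 of 4), where markers of hepatocytes (3 of 3), erythrocytes (2 of 2) and endothelium (2 of 4) were relatively higher. Hepatocyte markers were relatively lower in the KO center (3 of 3). Their part was not tested. With all UMIs only *Dtna* in the center (0.40, adjusted p = 0.0108) and *Sgca* in the periphery (0.49, adjusted p = 0.00249) still passed.

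In CaV1.1 KO at E18.5 *Utrn* was at 91.2 in the spots classed as center against 67.4 in intermediate muscle. Its interaction of 0.09 ± 0.13 did not pass. In β-cat cKO it was at 77.4 in the center against 68.7, a within-section log2 ratio of 0.17 beside 0.60 and 0.47 in the controls. The interaction was -0.34 ± 0.10 (adjusted p = 0.250), so the difference did not pass. No member passed in edgeR for the center (0.367% of genes called, 1060 at an unadjusted p below 0.05) or the periphery (0.374% and 1058) of β-cat cKO. *Itga7* in the periphery was at 161.3 against 105.7 in CaV1.1 KO and at 156.3 against 121.8 in β-cat cKO.

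The rest of the complex was read from lists of neighbors in the pathway. Of 13 other complex genes, 11 were tested in muscle. Between the stages, where 65.6% of all genes were called (4930 higher and 4796 lower of 14832), 7 rose and 2 were lower, with *Nos1* (neuronal nitric oxide synthase) at 3.03 and *Sspn* (sarcospan) at 2.43 among those that rose, and *Dtnb* (β-dystrobrevin) at -1.32 and *Sntg1* at -1.15. The list's median was 1.34. Scaled to all UMIs, *Nos1* was at 2.32 and *Sspn* at 1.72. The product of *Nos1* is known to be held at the membrane by dystrophin. Among 11 matrix ligands 7 rose and *Nid2* was lower (-0.25), with *Lamb2* (laminin β2, a synaptic chain) at 1.80 and *Lama2* (laminin α2, the main muscle chain) at 0.95. The 13 genes that glycosylate dystroglycan divided into 4 higher, 2 lower and 7 not called, with a median of -0.03. Of 7 other integrin genes 5 rose, led by *Itga1* (1.53), and of 12 genes of the cortical cytoskeleton and membrane repair all 12 rose, led by *Synm* (synemin, 4.76) and *Cavin4* (3.39). The 65.6% counts calls in both directions, so the genes that rose in a list stand beside 4930 of 14832. The medians of the 5 lists with all UMIs were 0.62, 0.02, -0.75, -0.33 and 0.86, in the same order.

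In CaV1.1 KO at E14.5, 1 of these genes was called, *Lama5* (laminin α5, -0.60), beside 2.08% of all genes. At E18.5 the KO had lower *Cav3* (caveolin-3, -1.27), *Nos1* (-1.13) and *Sspn* (-0.69) and higher *Sntg1* (3.04) and *Dtnb* (0.80), and 9 of 12 cytoskeletal genes were lower, led by *Synm* (-1.95) and *Des* (desmin, -1.34, also one of the 9 sarcomeric genes). Scaled to all UMIs, *Cav3* (-0.73), *Nos1* (-0.60), *Synm* (-1.41) and *Dtnb* (1.34) kept their signs, but *Pomgnt1* turned from -0.51 to 0.03. Beside 25.7% of all genes called, counts higher and lower were 2 and 4 of 11 complex genes, 1 and 1 of 11 matrix ligands, 0 and 2 of 13 glycosylation genes, 1 and 1 of 7 integrin genes and 0 and 9 of 12 cytoskeletal genes, with medians of -0.37, -0.24, -0.15, -0.25 and -0.67. With all UMIs these medians were 0.17, 0.30, 0.39, 0.29 and -0.13, beside 0.54 over all genes. In β-cat cKO, where 8.80% of all genes were called, 4 of the genes on these lists were, all lower, namely *Ank3* (-0.87), *Cavin4* (-0.83), *Lamb2* (-0.78) and *Itga6* (-0.51).

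Along the fiber, *Nos1* (-0.66), *Sntb1* (-0.25) and *Sspn* (-0.18) were lower and *Lama2* (0.27), *Lamb2* (0.15) and *Ank3* (0.22) higher in the E18.5 center than in intermediate muscle, where *Utrn* was higher. In the E18.5 periphery the matrix ligands *Bgn* (biglycan, 0.61), *Lamb2* (0.45), *Hspg2* (perlecan, 0.37) and *Lama2* (0.33) and the integrin genes *Itga9* (0.57), *Itga5* (0.38), *Itgav* (0.32) and *Itgb1* (β1, the partner of α7, 0.26) were higher beside *Itga7*, whereas *Itga1* (-0.45), *Nos1* (-0.54) and *Sntb1* (-0.40) were lower. With all UMIs these genes kept their signs. In the E18.5 center, with 11.5% of all genes called, 0 of 10 complex genes were higher and 5 lower, and 2 of 11 matrix ligands were higher and none lower, with medians of -0.12 and 0.10. In the periphery, with 34.0% of all genes called, the counts were 2 and 5 of 10 complex genes, 5 and 4 of 11 matrix ligands, 4 and 1 of 7 integrin genes and 1 and 4 of 12 cytoskeletal genes, with medians of -0.14, 0.09, 0.26 and -0.01. At E14.5, with 16.9% of all genes called in the center, 3 of 10 complex genes and 7 of 12 cytoskeletal genes were higher in the center and none lower. At that age *Sntb1* was higher in the center (0.31) and lower in the periphery (-0.42), and *Bgn* (-0.40 and 0.28) did the reverse. In muscle against other spots *Cav3* (2.02 at E14.5, 2.45 at E18.5) and *Sntb1* (1.60 and 2.08) were higher, and *Dtnb* (-0.48 and -0.65), *Sntb2* (-0.42 and -0.71) and *Sntg1* (-1.63 and -2.71) lower. Slow-rich spots had less *Nos1* (-0.67) and *Sntb1* (-0.28) and more *Drp2* (0.50), *Dtnb* (0.38) and *Itgav* (0.29) than fast-rich spots.

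Over the 24 sums of 3 muscle regions in 8 sections, the genes with a profile most like that of *Dmd* among 5891 well-expressed genes were *Tpm1* (Pearson r = 0.986), *Bhlhe40* (0.985), *Fem1a* (0.983), *Mybpc1* (0.982) and *Des* (0.981), and *Sgcd* (0.976) was the nearest member. For *Utrn* they were *Rras* (0.969), *Egln3* (0.969), *Jph1* (0.966), *Cd151* (0.966) and *Sgcd* (0.966), with *Dmd* at 0.961. Regions of a section share its library, and the stage difference dominates these sums, so the values describe profiles only. In single muscle spots *Utrn* was detected in 56.0% to 82.8% and *Dmd* in 58.9% to 95.8% of spots per section. The medians of the 28 pairwise correlations of the members across spots were 0.026 to 0.1 per section, and spots of a section share its depth, so nothing is read from them.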

How the data were processed

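The authors made the deposited UMI counts per gene and spot with Space Ranger (2.0.1 in the methods, 2.0.0 or 2.0.1 in the file headers) from mouse probes on mm10, and the files used here hold those counts without normalization. Sections were 5 µm thick, spots 55 µm wide and 100 µm apart. Of each section, spots with at least 1000 UMIs were kept. Muscle spots had a mean log-normalized level of 9 sarcomeric genes above the Otsu threshold (scikit-image 0.26.0), and other spots held tendon or the rest. Center, periphery and fiber-type classes were cut within each section from gene scores that used no member.

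UMIs were summed per section and class, so the section was the replicate. Sums were tested with edgeR 4.0.16 (filterByExpr, TMM, glmQLFit and glmQLFTest, R 4.3.3) over all genes passing the filter, with Benjamini-Hochberg adjustment at 0.05 and standard errors from log2 fold change and F. All 8 sections shared one estimate of the spread in the comparisons of muscle between groups. Fits within sections had the section as a block, since classes of a section shared its deviations (r = 0.25 to 0.81 over 14832 genes). The *Utrn* to *Dmd* ratio was tested with an exact permutation test that enumerated all assignments (Python 3.11.15). The scripts were tested on simulated data. Alternatives were DESeq2 1.42.0, other scalings, filters, region sizes and sections left out.

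The members and the gene lists were chosen with earlier results of these data known. Members were described in full, and in each list up to 4 called genes per direction were named by size of change, except that some genes of the lists are not reported here by name and stay in the counts. Start windows came from RefSeq (GRCm38.p6). Intervals for single shares are not given, and the number of UMIs limits the precision of low levels, down to 25 of *Dtna* outside muscle and 13 in its tendon-rich spots in E14.5 control 3.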

Additional observations from a re-analysis of the deposited data

Results flagged for a closer look

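The regional pattern of a member differed between groups, by the interaction term of the fit across all sections, in 17 of 64 tests. For center against intermediate muscle, E18.5 minus E14.5, these were *Utrn* (0.33), *Dag1* (-0.40), *Sgca* (-0.61), *Sgcb* (-0.43), *Dtna* (-0.42) and *Itga7* (-0.39). For periphery against intermediate muscle between the same ages, they were *Dmd* (-0.38), *Sgca* (-0.40), *Sgcd* (-0.25) and *Itga7* (0.35). For CaV1.1 KO minus control at E18.5, they were *Sgca* (0.43), *Sgcb* (0.46) and *Dtna* (0.59) in the center and *Dag1* (0.37), *Sgca* (0.73), *Sgcb* (0.52) and *Dtna* (0.38) in the periphery. All values are log2 differences with TMM, and all but those of *Utrn* in the center and *Itga7* in the periphery have the sign of the sarcomeric genes in the same term. Between the ages, 12.9% of all genes were called for the center and 10.6% for the periphery. For CaV1.1 KO at E18.5 the shares were 3.31% and 8.62%. The spots classed as center in that section may lie elsewhere than in controls.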

How the results depend on the processing

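Across 720 recalculations of 74 member values, 553 kept direction and side of the threshold, 126 no longer passed, 12 newly passed and 29 changed sign. Scaled to the 9 sarcomeric genes, the stage values were -1.08 (*Dmd*), -1.73 (*Utrn*), -2.24 (*Dag1*), -1.09 (*Sgca*), -2.12 (*Sgcb*), -2.002 (*Sgcd*), -0.53 (*Dtna*) and -2.002 (*Itga7*). The values of CaV1.1 KO at E18.5 were then 0.63 (*Dmd*), 0.96 (*Utrn*) and 0.91 (*Itga7*). In the E14.5 center *Sgcb* was at -0.0441 and *Utrn* at -0.20, in the E18.5 center *Sgcb* at 0.0718, *Sgca* at 0.0719 and *Dmd* at 0.0937, and in the E18.5 periphery *Sgcb* at 0.20, *Dag1* at 0.15, *Sgca* at 0.0816, *Dtna* at 0.0632 and *Dmd* at 0.26. Scaled to all UMIs, *Utrn* was at 0.0891 and *Itga7* at 0.0412 in CaV1.1 KO at E18.5, *Utrn* at -0.0733 and -0.25 in muscle against other spots at E14.5 and E18.5, and *Dmd* at 0.0318 in the E18.5 periphery. Without E14.5 control 1, *Utrn* in the E14.5 center was at -0.0025. With a periphery within 150 µm of other spots, *Itga7* was at -0.0076 and *Sgcd* at -0.15. The cause of these changes was not tested.

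Counts of members called moved as follows. With DESeq2 they were 3 in CaV1.1 KO at E14.5, 5 at E18.5, 2 in β-cat cKO, 1 for the KO effect between ages, 1 in the E14.5 periphery, 1 in the E18.5 center, 3 for slow against fast and 10 for the regional differences between groups. Over all genes, DESeq2 called 162 higher and 569 lower in CaV1.1 KO at E14.5 and 1272 and 2321 at E18.5. In β-cat cKO it called 539 and 1051, and for the KO effect 552 and 1030. It called 220 and 99 in the E14.5 periphery and 269 and 355 in the E18.5 center. Where no count over all genes is given, the member counts are not set against a background. With all UMIs they were 0 in CaV1.1 KO at E18.5, 2 for the KO effect (31.4% of all genes), 5 in the E18.5 periphery, 3 for slow against fast and 9 for the regional differences. Relative to the 9 sarcomeric genes they were 8 in CaV1.1 KO at E18.5, 3 for the KO effect and 2 in the E14.5 center, where 84.1%, 31.8% and 54.1% of all genes were called. Without a filter on low counts they were 5 in CaV1.1 KO at E18.5 and 2 in β-cat cKO, with all kept spots 8 and 4, and with the muscle spots of higher muscle score 1 in CaV1.1 KO at E18.5 and 1 for the KO effect. With the 150 µm periphery they were 3 in the E14.5 center, 5 in the E14.5 periphery and 1 in the E18.5 center, and regions of 10% gave 1 in the E18.5 center. Without the section block, the counts were 0 in the E14.5 center, 0 in the E14.5 periphery, 0 in the E18.5 center and 1 in the E18.5 periphery. Leaving out 1 section gave 8 to 8 members for the stage comparison, 0 to 1 in CaV1.1 KO at E14.5, 1 to 7 at E18.5, 0 to 2 in β-cat cKO, 0 to 0 for the KO effect, 6 to 7 and 7 to 8 in muscle against other spots, 4 to 5 and 1 to 3 in the E14.5 center and periphery, 1 to 2 and 5 to 6 in the E18.5 center and periphery, 2 to 4 for slow against fast and 11 to 16 for the regional differences.

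With the replicate number as a block, 8 of 8 members passed in the stage comparison. Same-numbered sections did not deviate together (r = -0.18 and -0.22 over 14832 genes), so the numbers were read as names only.

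All-gene calls higher and lower moved with all UMIs from 329 and 620 to 4407 and 248 for the KO effect, from 1127 and 912 to 818 and 1401 in the E14.5 center, from 753 and 1069 to 2570 and 463 and from 720 and 775 to 2901 and 347 for the stage terms of center and periphery, and from 353 and 116 to 59 and 529 and from 840 and 382 to 292 and 1402 for those of CaV1.1 KO at E18.5. They moved with all UMIs from 49 and 6 to 40 and 23 for the periphery in CaV1.1 KO at E14.5, from 24 and 29 to 17 and 58 in β-cat cKO, and from 5 and 1 to 0 and 0 for the center in CaV1.1 KO at E14.5. DESeq2 gave 197 and 536, 186 and 378, and 206 and 29 for the stage terms and the CaV1.1 KO center term at E18.5, and 473 and 749 for slow against fast.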
